A study of Mus musculus with 2 samples.

Results

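The Rab genes encode small GTPases that mark the membranes of a cell and steer vesicles between them. The members described here are the genes whose symbol is Rab followed by a number and at most 1 letter. They number 58 of the 24013 genes in the deposited table. The rule reads the symbol alone and uses no measured value. RNA was sequenced from splenic CD8 T cells of C57BL/6 mice in 1 wild-type library, from animals 7 weeks old, and 1 library from DGKζ-/- animals 6 weeks old, called the deficient library below. The naive cells of both genotypes had been stimulated for 24 hours with plate-bound antibodies to CD3 and CD28. The labels state neither which exons of the diacylglycerol kinase ζ gene are deleted nor how many animals gave each library. Diacylglycerol kinase ζ removes diacylglycerol, the lipid through which the T cell receptor activates Ras and protein kinase C.

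A Rab protein cycles between a GTP-bound form on a membrane and a GDP-bound form in the cytosol. Exchange factors load GTP, GTPase-activating proteins end the active state, and GDI proteins carry the prenylated GDP form back. In the active state a Rab recruits effectors such as motors, tethers and fusion factors. In T cells, Rab traffic returns receptors to the immune synapse through recycling endosomes, and Rab27a brings lytic granules to the plasma membrane. Many Rabs come as closely related paralogs whose tissue distribution differs; Rab6a is found in nearly all cells, whereas Rab6b is best known from neurons.

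Reads over genes numbered 37211969 in the wild-type library, 2.76 times the 13464169 of the deficient one, so the deficient library limits the precision. Dgkz, the targeted gene, stood at 6714 and 2591 normalized counts, which are reads divided by a size factor for each library. All 7 genes on a list of CD8 T cell markers were present in both libraries, at summed levels of 43329 and 36166 normalized counts; 5 were lower in the deficient library, among them Cd8a (13090 and 8455), and 2, Cd2 and Lck, were higher. Xist had 24 and 5368 reads, and the Y-linked genes Ddx3y, Eif2s3y, Kdm5d and Uty, at 921 to 2192 in the wild-type library, had 0 reads in the deficient one. Genotype, age and sex can therefore not be told apart in any difference given here. All 10 genes on a list of B cell markers were lower in the deficient library, and their summed level was 3052 and 2241 normalized counts. The other marker lists summed to 490 and 422 for CD4 T cells, 1362 and 1995 for NK cells, 286 and 274 for myeloid cells, 61.2 and 82.3 for neutrophils and mast cells, 88.6 and 61.7 for erythroid cells and platelets, and 1051 and 693 for stromal and endothelial cells. In each of these 6 lists 1 gene was higher in the deficient library. Of the NK list that gene was Eomes (956 and 1861), which activated CD8 T cells also express, while Klrd1 (395 and 134) was lower and the other 3 had 0 deficient reads. Of the myeloid list it was Mpeg1 (127 and 185), with 7 genes lower, and of the neutrophil and mast cell list Kit (40.2 and 78.9), with 4 lower and 1 at 0 in both. Of the CD4 T cell list it was Foxp3 (262 and 321), while Cd4 (171 and 53.2) and Zbtb7b (57.1 and 48.0) were lower. Of the stromal and endothelial list it was Pdgfrb (7.58 and 15.4), with 5 genes lower. Pecam1 (1015 and 676), among those 5, held most of that list's sum in both libraries. With 1 library per genotype there is no replicate check, no p-value was computed, and the intervals cover counting error only. In bulk RNA, fewer cells that express a gene and less of its RNA per cell cannot be told apart.

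Most of the compared Rab transcripts stood at nearly the same level in both libraries, and 3 of them reached the log2 threshold defined below. Rab6b, the Rab6 paralog of neurons, was 25.4-fold lower in the deficient library. Rab4a, which returns endocytosed receptors quickly to the surface, was 3.93-fold higher. Rab34, a Rab of the Golgi, lysosome positioning and primary cilia, was 2.40-fold higher. Of the 58 members, 40 reached a mean of 50 normalized counts over both libraries and were compared. A gene is called where log2((deficient + 10)/(wild type + 10)), the log2 ratio, reached 1 or -1. By this rule 2 members were called higher, 1 lower and 37 were not called. The called share of 7.5% of the compared members stands beside 2.6% of all 10518 genes compared (1.3% called higher and 1.29% lower). Over all genes 137 were called higher and 136 lower, and 115 and 179 with both libraries scaled to equal totals; the 3 called Rab genes were called under both scalings. Rab6b, Rab4a and Rab31 had under 50 normalized counts in 1 library and reached the minimum through the other, so the share of called members supports nothing. Among the 37 members with at least 50 normalized counts in both libraries, 1 was called higher (Rab34) and 0 lower.

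The rest of the family lay close together. Of the 40 compared members, 35 had a log2 ratio within 0.5 of 0, which is 87.5% of them, as did 87.0% of all genes compared. Their median log2 ratio was -0.015, with quartiles at -0.17 and 0.21. For all genes compared the median was 0.055 and the quartiles were -0.14 and 0.22. The log2 ratio was above 0 in 19 members and below 0 in 21, so 47.5% of the compared members were above 0, beside 58.2% of all genes compared. With equal totals 13 members were above 0 and 27 below, beside 44.8% of all genes above 0. For 20 of the 40, the 95% counting interval of the fold (Clopper-Pearson, on the reads of a gene in both libraries) included no change, and this held for 42.5% of all genes. All members together took 0.217% (95% counting interval 0.216 to 0.219) of the wild-type and 0.203% (0.201 to 0.206) of the deficient reads. Their summed level was 47099 and 46963 normalized counts.

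**Figure D1:**
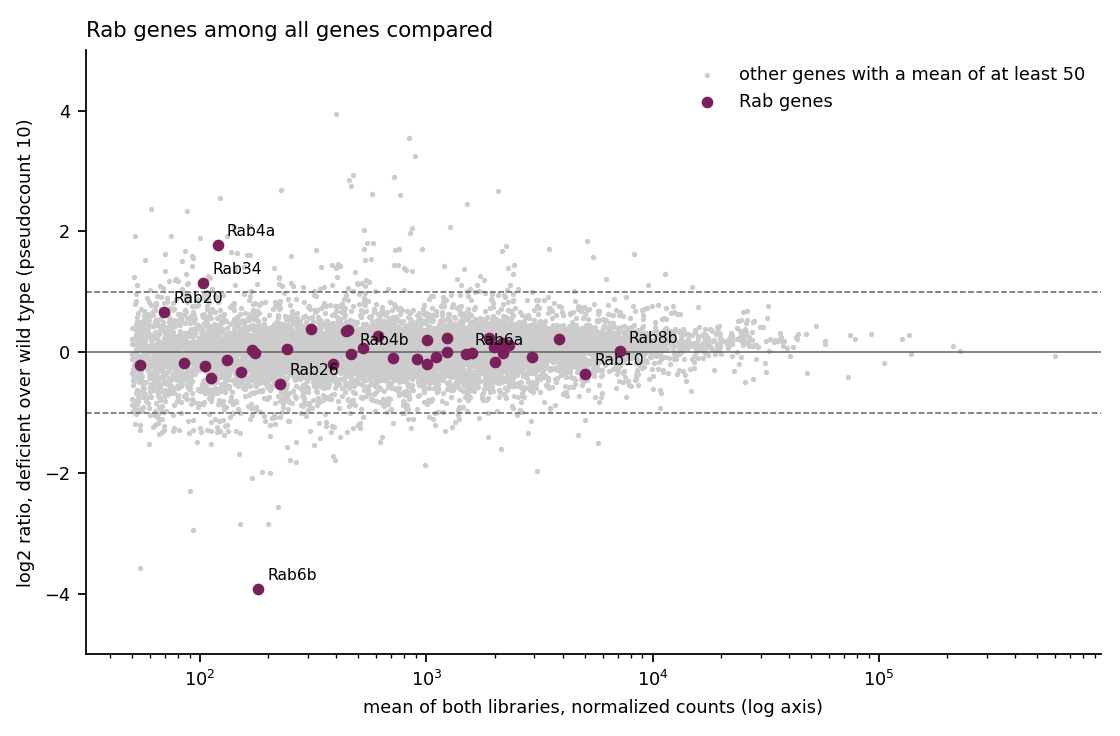
Each point is a compared gene, with a mean of 50 normalized counts or more; the x axis is that mean on a log scale and the y axis the log2 ratio of the deficient over the wild-type library. Purple points are the 40 compared Rab genes and grey points all other genes, with 6 genes outside the plotted range. Dashed lines mark log2 ratios of 1 and -1; Rab4a (1.78) and Rab34 (1.14) lie above the upper line, Rab6b (-3.92) far below the lower.

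Rab6 proteins act at the Golgi, in retrograde transport from endosomes and in vesicles bound for the plasma membrane. Rab6b had 597 wild-type reads, or 348 normalized counts, and 8 deficient reads, or 13.7 normalized counts. The counting interval of its 25.4-fold difference ran from 12.8 to 59.0. Rab6a, its paralog, stood at 1508 and 1478 normalized counts, a log2 ratio of -0.03, so the libraries were nearly level for the widely expressed gene. Per kb of transcript, the scale on which genes can be set against each other, Rab6a stood at 469 and 460 normalized counts and Rab6b at 69.5 and 2.74. Of the reads of the pair, scaled by library, Rab6a held 81.2% in the wild-type and 99.1% in the deficient library. Both paralogs together stood at 1857 and 1492 normalized counts, and their sum was 1.24-fold lower in the deficient library (1.15 to 1.34). This sum gives the longer Rab6b transcript more weight, and summed per kb the pair stood at 539 and 463.

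Since the paralogs are alike in sequence, it was checked whether reads could be assigned to the wrong one. The coding sequences of Rab6a and Rab6b, 627 bases each in GENCODE M21, are identical at 78.5% of positions. The longest stretch that the full transcripts, of 3214 and 5007 bases, share is 14 bases. No 50-base stretch of the Rab6b transcript occurs in a transcript of another gene. The 60-base coding windows with the fewest and with the most differences between the paralogs are shown for this reason, with capitals at the bases that differ. The most alike windows, coding bases 97 to 156, differ at 7 bases.
Rab6a: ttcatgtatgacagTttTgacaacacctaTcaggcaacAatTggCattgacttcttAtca
Rab6b: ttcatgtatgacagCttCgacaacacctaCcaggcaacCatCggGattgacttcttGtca
The least alike windows, coding bases 403 to 462, differ at 20 bases.
Rab6a: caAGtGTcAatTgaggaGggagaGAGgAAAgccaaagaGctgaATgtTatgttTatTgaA
Rab6b: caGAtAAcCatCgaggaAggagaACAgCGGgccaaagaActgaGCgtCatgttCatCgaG
Even in the most alike window the differences are spread over the stretch. The Rab6a transcript shares 22.3% of its 50-base stretches with other genes, nearly all with Mrpl48 on the opposite strand. Mrpl48 stood at 722 and 854 normalized counts, and the library kit does not keep the strand, so part of the Rab6a reads may belong to it.

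The promoters of the Rab6 pair are shown because the paralogs differed in their ratio between the libraries. These are RefSeq sequences of build GRCm38.p6, from 250 bases before to 50 after the start, with CpG dinucleotides in capitals. The files use another build, mm9. Rab6a lies at chr7:100607336-100607635 and Rab6b at chr9:103111824-103112123, both on the plus strand.
Rab6a: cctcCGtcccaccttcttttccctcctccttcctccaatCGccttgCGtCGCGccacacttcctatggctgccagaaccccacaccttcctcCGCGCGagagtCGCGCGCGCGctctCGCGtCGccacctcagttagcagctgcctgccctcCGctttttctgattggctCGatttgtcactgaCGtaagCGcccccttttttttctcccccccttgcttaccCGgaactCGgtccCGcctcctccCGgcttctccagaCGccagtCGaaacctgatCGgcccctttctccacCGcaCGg
Rab6b: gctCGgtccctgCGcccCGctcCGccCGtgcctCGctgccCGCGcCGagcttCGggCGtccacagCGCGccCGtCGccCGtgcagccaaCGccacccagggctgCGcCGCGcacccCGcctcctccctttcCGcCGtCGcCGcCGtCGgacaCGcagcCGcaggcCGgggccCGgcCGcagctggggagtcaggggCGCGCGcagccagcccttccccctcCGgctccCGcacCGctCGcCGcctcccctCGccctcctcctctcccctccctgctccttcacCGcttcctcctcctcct
Rab6a holds 29 and Rab6b 42 CpG dinucleotides, against a median of 20 over the 47 members matched by symbol and of 7 over all 27025 promoters. The GC box GGGCGG, searched on both strands, occurs in Rab6b but not in Rab6a, in 70.2% of the 47 members and in 35.9% of all promoters. The CCAAT box CCAAT occurs in Rab6a but not in Rab6b, in 48.9% of members and in 37.9% of all. The letters TATAAA, of the TATA box, and TGACTCA, of an AP-1 site, are in neither window. TATAAA occurs in 8.51% of members and 14.2% of all promoters, and TGACTCA in 4.26% and 5.17%. These matches describe the sequences, and no binding or methylation was measured.

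The 2 nearest measured protein-coding genes on each side of Rab6b were Ryk and Slco2a1, and Srprb and Trf. Ryk stood at 72.9 and 77.2 normalized counts and Srprb at 1536 and 1866, log2 ratios of 0.07 and 0.28. Slco2a1 (2.33 and 0) and Trf (9.33 and 0) were low in wild type and had no deficient reads. The B cell markers were lower in the same library as Rab6b, with the summed levels of 3052 and 2241 normalized counts given above, and none of the 10 was at 0 in either library. The part of B cells in its difference was not tested.

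Rab4 and Rab11 proteins return endocytosed receptors to the surface, Rab4 by the fast and Rab11 by the slow route. Rab4a had 83 wild-type reads, or 48.4 normalized counts, and 111 deficient reads, or 190 normalized counts. Its 3.93-fold difference had an interval of 2.93 to 5.29. Rab4b stood at 468 and 460 normalized counts, a log2 ratio of -0.03. Per kb, Rab4a stood at 34.1 and 134 normalized counts and Rab4b at 393 and 386, so Rab4a remained the lower of the pair in both libraries. Rab4a held 9.37% of the pair's scaled reads in the wild-type and 29.3% in the deficient library. Both paralogs together were 1.26-fold higher (1.11 to 1.42), at 517 and 650 normalized counts, or 427 and 520 summed per kb. No 50-base stretch of the Rab4a transcript occurs in another gene. Of those of Rab4b, 80.3% also occur in the read-through gene Gm21983, and its value is uncertain for that reason. The other recycling Rabs differed little. Rab11a stood at 1134 and 1068, Rab11b at 1079 and 938, Rab14 at 1598 and 1576 and Rab35, which is known to act in recycling to the T cell synapse, at 2225 and 2408 normalized counts. Their log2 ratios ran from -0.20 (Rab11b) to 0.11 (Rab35).

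Late endosomal, lysosomal and autophagic Rabs had a median log2 ratio of 0.27, with 5 of 5 compared members above 0, where 58.2% of all genes were, and 4 of 5 with equal totals or recentred on the median of all genes, where Rab12 was below 0. Rab34 had 104 and 85 reads, or 60.6 and 146 normalized counts, and was 2.40-fold higher in the deficient library (1.78 to 3.23). Its 2 transcript rows gave log2 ratios of 1.10 and 1.14, and with a pseudocount of 50 it was no longer called (0.82). Rab7, the GTPase of late endosomes and lysosomes, stood at 2039 and 2274 normalized counts and had the highest level per kb of the group, 1230 and 1372; 21.6% of its 50-base stretches also occur in other genes, most of them in the pseudogene Rab7-ps1. Rab9, which acts in the return of receptors from late endosomes to the Golgi, stood at 553 and 671 and Rab24, linked to autophagy, at 394 and 509. Rab24 shares 43.5% of its 50-base stretches with Prelid1, so its value is uncertain. Rab12 stood at 237 and 245 normalized counts. For Rab12 the counting interval of the fold included no change.

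**Figure D2:**
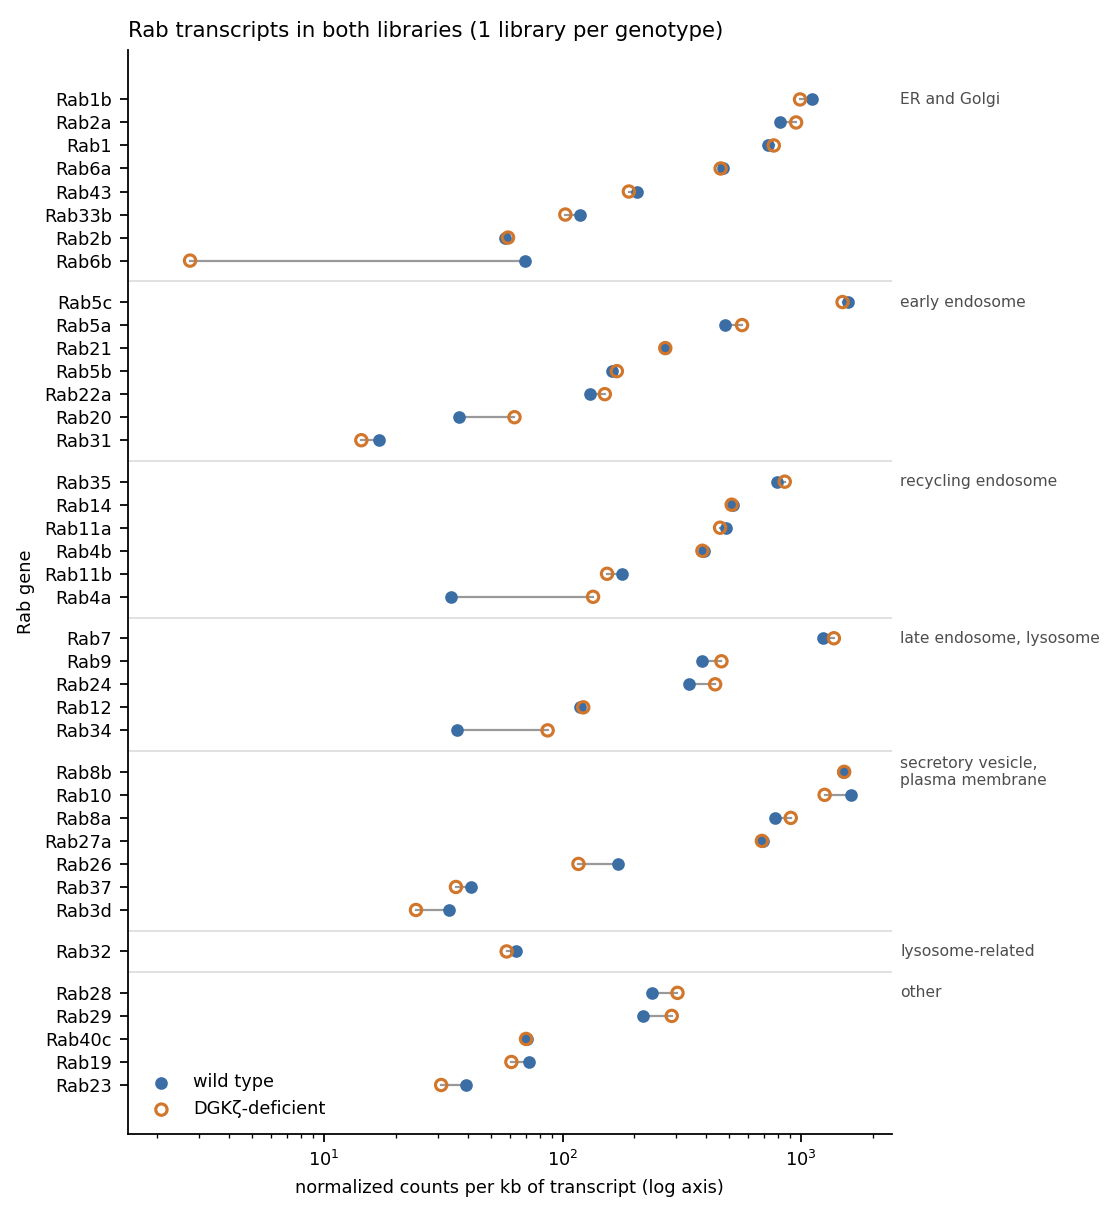
Normalized counts per kb of transcript, on a log axis, for the 39 compared Rab genes with an unambiguous transcript length, grouped by the compartment they are known for. Filled blue circles are the wild-type and open orange circles the deficient library, 1 library each, with no error bars. Most pairs of circles overlap; Rab6b (69.5 and 2.74), Rab4a (34.1 and 134) and Rab34 (36.0 and 86.5) are the widest apart.

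Rabs of secretory vesicles and delivery to the plasma membrane showed no called member among 7 compared, and 5 of them had a log2 ratio below 0 (6 with equal totals), with a median of -0.18. Of all genes compared 58.2% were above 0, and 44.8% with equal totals. Rab27a, the GTPase needed for lytic granule release, was level at 2196 and 2169 normalized counts, with a log2 ratio of -0.02 and an interval of the fold from 0.926 to 1.05. Its paralog Rab27b had 13 reads in the wild-type and 0 in the deficient library. Taking the 13 reads as exact, it was at least 1.47-fold lower against 3 reads, and the exact counting interval of the fold began at 1.04-fold lower. Rab8b stood at 7111 and 7176 normalized counts and Rab8a at 3549 and 4118, and per kb Rab8b was the higher of the pair, at 1503 and 1516 against 780 and 905; both serve transport from the Golgi and endosomes to the plasma membrane. Rab10, a Rab of exocytosis and of glucose transporter delivery, stood at 5663 and 4409, 1.28-fold lower (1.23 to 1.34). Rab26, which is tied to secretory granules, had the lowest log2 ratio of the uncalled compared members, -0.52, at 268 and 184 normalized counts. Rab3d stood at 130 and 94.3 and Rab37 at 91.0 and 78.9. The 4 Rab3 genes, best known from regulated exocytosis in neurons and glands, summed to 185 and 122 normalized counts, 1.52-fold lower (1.17 to 1.99).

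Early endosomal Rabs included no called member among 7. Rab5 controls the fusion of endocytic vesicles with early endosomes, and its 3 paralogs were read at 1135 and 1338 (Rab5a), 512 and 537 (Rab5b) and 3023 and 2857 (Rab5c) normalized counts. Of the 50-base stretches of Rab5b, 13% also occur in Gm13991. Rab5c had the highest level per kb of the family when both libraries are averaged, at 1578 and 1492. Rab22a, a Rab of sorting and recycling from early endosomes, stood at 931 and 1075, and its relative Rab31 at 58.9 and 49.7. Rab21, linked to integrin uptake, stood at 1234 and 1240. Rab20 had the highest log2 ratio of the uncalled compared members, 0.67. Its 88 and 51 reads equal 51.3 and 87.5 normalized counts, and its level was 1.70-fold higher (1.18 to 2.43). It shares 22.9% of its 50-base stretches with E230013L22Rik, so part of this value is uncertain.

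Among the other Rabs of the endoplasmic reticulum and the Golgi, 8 were compared beside Rab6b and none was called. Rab1 and Rab1b, required for transport from the endoplasmic reticulum to the Golgi, stood at 1931 and 2041 and at 2125 and 1893 normalized counts. Rab2a stood at 1732 and 2032, and Rab2b at 167 and 171. Of the Rab2b transcript, 74.2% of the 50-base stretches also occur in other genes, and of the Rab43 transcript 90.4%, so both values are uncertain. Rab43 stood at 941 and 873, Rab18, a Rab of lipid droplets and the endoplasmic reticulum, at 732 and 688, and Rab33b at 414 and 358 normalized counts. Rab33b shares 20.8% of its 50-base stretches with other genes, so part of its value is uncertain. Outside these groups, Rab29, which is known to act in receptor recycling to the T cell synapse, had 267 and 352 normalized counts and was 1.32-fold higher (1.11 to 1.56). Rab28 stood at 387 and 496, Rab23 at 171 and 134, Rab40c at 175 and 173, Rab19 at 114 and 96.0 and Rab32 at 137 and 125.

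Paralogs were set against each other through the ratio of their ratios, in which size factors and transcript lengths cancel. The log2 of this ratio, called the difference here, was taken on reads without the pseudocount. Of 14 pairs with reads in both libraries and at least 1 mean of 50, 10 had both means at or above it. Among these 10, the difference was 4.64 for Rab6a minus Rab6b (3.64 to 5.86). For Rab4a against Rab4b the ratio of ratios was 4.01 (2.88 to 5.57). The other 8 differed by less than 0.5. Within the 8, the counting interval left out 0 for 3 pairs. These were Rab5a minus Rab5c at 0.32 (0.17 to 0.46), Rab1 minus Rab1b at 0.25 (0.11 to 0.38) and Rab8a minus Rab8b at 0.20 (0.12 to 0.29). For Rab11a minus Rab11b the difference was 0.12 (-0.08 to 0.31), and for Rab2a minus Rab2b 0.19 (-0.16 to 0.55). The size of Rab3c minus Rab3d, -1.79, rests on 14 and 1 reads of Rab3c, and its interval ran from -7.22 to 0.99. Between the paired coding sequences, identity ran from 64.5% (Rab33a and Rab33b) to 78.5% (Rab6a and Rab6b). The longest identical stretch of the full transcripts of any pair was 38 bases, in Rab1 and Rab1b.

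**Figure D3:**
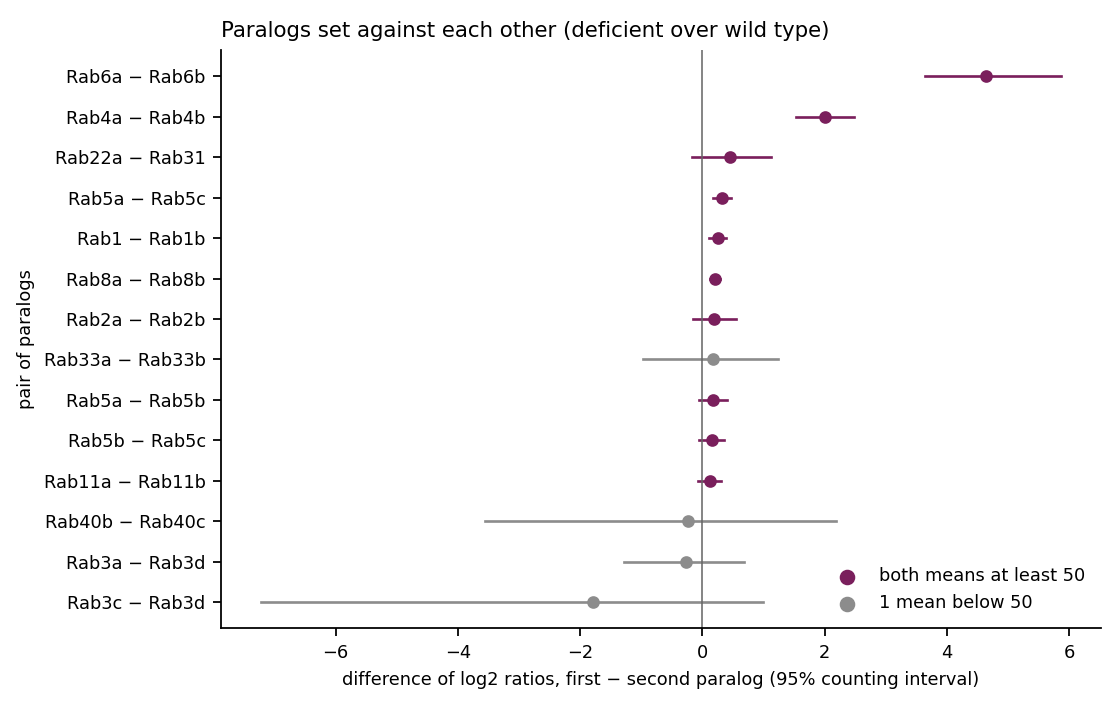
Each row is a pair of Rab paralogs. The point is the log2 of the first paralog's read ratio (deficient over wild type) over that of the second, without a pseudocount. The line is its exact 95% counting interval. Purple pairs have both means at or above 50 normalized counts and grey pairs do not. Rab6a minus Rab6b (4.64) and Rab4a minus Rab4b (interval 1.53 to 2.48) stand far to the right of 0, and the other purple pairs lie within 0.5 of it.

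The remaining 18 members had a mean below 50 normalized counts and were not compared. Of these, 15 had at most 10 reads in the deficient library. Rab39b, an X-linked Rab best known from neurons, came nearest to the minimum, with a mean of 37.7. Its 38 and 31 reads equal 22.2 and 53.2 normalized counts, and its level was 2.40-fold higher in the deficient library (1.44 to 3.96). Its paralog Rab39 had 19 and 2 reads. Of the 50-base stretches of Rab39b, 16.2% also occur in Gm15063. The other X-linked members were Rab9, already given, Rab33a, with 33 and 11 reads or 19.2 and 18.9 normalized counts, and Rab9b. The median log2 ratio of the 341 X-linked genes compared was 0.060, close to that of all genes, while Xist separated the libraries. Rab3a, best known from synaptic vesicles, had 73 and 15 reads. Rab9b had 0 reads in both libraries, which allows a level of up to 1.75 normalized counts in the wild-type and 5.14 in the deficient library. Rab3b and Rab42 had 7 and 8 reads in the wild-type and 0 in the deficient library, and Rab38 had 0 and 1. Rab15 had 22 and 6, Rab3c 14 and 1, Rab30 12 and 3, Rab13 10 and 4, Rab40b 7 and 2, Rab36 6 and 1, Rab44 6 and 3, Rab17 5 and 1, and Rab25 2 and 1 reads.

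The genes that act on Rab proteins were described by lists chosen by function. The list for prenylation and GDI proteins holds 10 genes, among them Rabac1, Rabif, Praf2 and Arl6ip5, which are of neither kind. All 10 were compared, none was called, and the median log2 ratio was 0.14. The log2 ratio was above 0 in 9 (6 with equal totals), beside 58.2% of all genes (44.8% with equal totals). Gdi2, a GDI protein gene, stood at 8492 and 8995 normalized counts, and Praf2 had the largest log2 ratio, 0.59, before Chml (-0.26), Rabggta (0.22) and Rabggtb (0.22). Of 46 exchange factor genes 40 were compared, with 1 called higher, 1 called lower, 38 not called and a median of 0.01. Among all genes compared 1.3% were called higher and 1.29% lower, and the median was 0.055. Dennd5a, an exchange factor for Rab39 that also binds Rab6, had 815 and 2123 normalized counts and was 2.61-fold higher (2.41 to 2.82). St5, an exchange factor for Rab13, had 262 and 120 and was 2.18-fold lower (1.69 to 2.85), with a log2 ratio of -1.06 that became -0.87 at a pseudocount of 50. Rin3, an exchange factor of the Rab5 group, had a log2 ratio of -0.94, and Dennd1c one of -0.84. Of 37 GTPase-activating protein genes 32 were compared, none was called, and the median was -0.05. Within them Sgsm2 (-0.66), Tbc1d25 (0.58), Tbc1d24 (-0.58) and Tbc1d2b (-0.57) had the largest log2 ratios.

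Of 48 effector genes 35 were compared, with 2 called higher, 1 called lower, 32 not called and a median of 0.12. Beside them stand the 1.3% called higher, the 1.29% called lower and the median of 0.055 of all genes compared. With equal totals the effector median was 0.027, and that of all genes -0.033. Optn, optineurin, a Rab8 effector and autophagy receptor, had 82 and 136 reads, or 47.8 and 233 normalized counts, and was 4.88-fold higher in the deficient library (3.68 to 6.50). The called Sytl genes encode synaptotagmin-like effectors of Rab27 and differed in direction. Sytl3 had 522 and 1077 normalized counts and was 2.06-fold higher (1.86 to 2.29), while Sytl2 had 106 and 46.3 and was 2.28-fold lower (1.52 to 3.55). Optn and Sytl2 each reached the minimum through 1 library. Neither Sytl call held throughout: the log2 ratio of Sytl3, 1.03, was 0.94 with both libraries scaled to equal totals, and that of Sytl2, -1.04, was -0.69 with a pseudocount of 50. Unc13d, the effector that docks and primes lytic granules with Rab27a, stood at 1789 and 1823. Kif20a, a mitotic kinesin that binds Rab6, had a log2 ratio of 0.61.

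**Figure D4:**
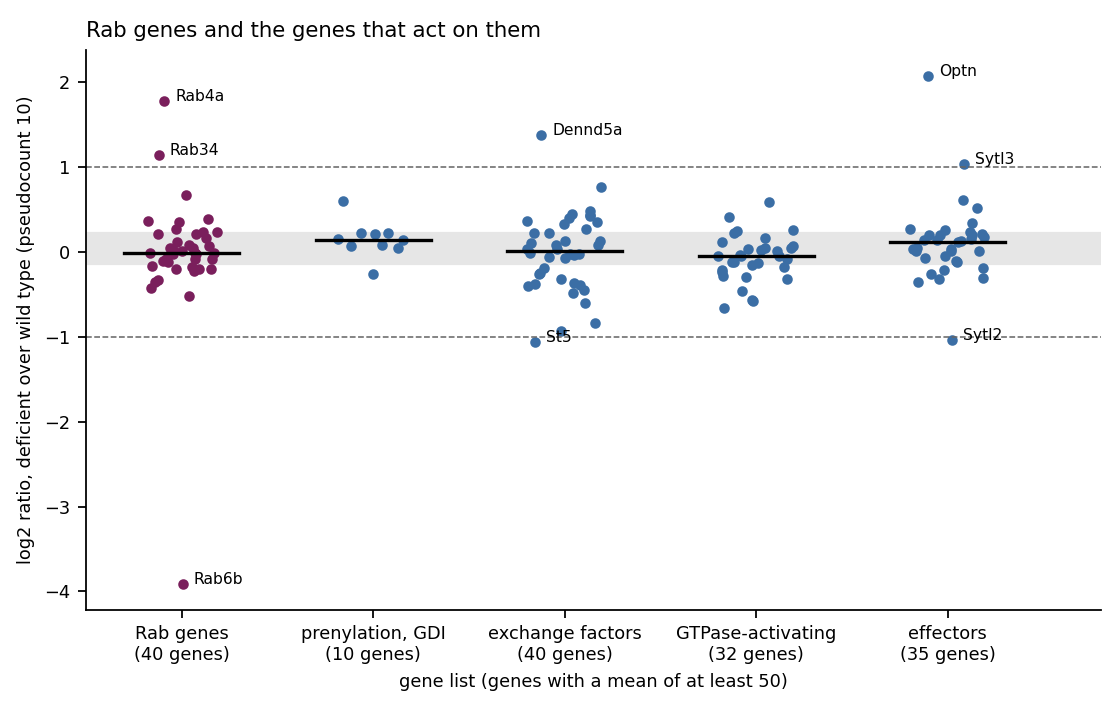
Log2 ratios of the deficient over the wild-type library for the 40 compared Rab genes (purple) and for 4 lists of genes that act on them (blue), 1 point per gene. Black bars are medians, the grey band spans the quartiles of all genes compared, and dashed lines mark 1 and -1. The medians run from -0.05 (GTPase-activating proteins) to 0.14 (prenylation and GDI), and Rab6b is the lowest point.

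The authors' deposited table holds a fold change and a test per transcript row for the deficient against the wild-type sample. It gave much smaller fold changes for the called members, and smaller ones for uncalled members too. Rab20 had a log2 fold change of 0.21 there, beside a log2 ratio of 0.67 here, and Rab26 -0.27 beside -0.52. In the authors' deposited table the log2 fold change of Rab6b was -0.08 and that of Rab4a 0.53, and that of Rab34 was 0.39. In that table the unadjusted p was 0.39 for Rab6b, 0.029 for Rab4a and 0.12 for Rab34. Rab4a was the only one of the 58 member rows below 0.05, and Rab9b had no p. Of the 30433 rows with a p, 326 were below 0.05. The adjusted p of the authors' deposited table was 0.999 for these rows, which is also its lowest value over all rows.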

How the data were processed

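RNA sequencing of 2 libraries, 1 per genotype, was used. Per the labels' protocols, RNA was extracted with Trizol and libraries were made with a NEBNext Ultra RNA kit, which does not mark the strand. Per the submitters' processing notes, STAR version 2, DESeq and build mm9 were used, without their roles. Which program counted the reads, and over which annotation, is not given in the sources used here. Normalized counts were deposited by the authors, a signal per RefSeq transcript row that is never negative. Each value is a whole number of steps of 1 size for its library (100% of values, relative tolerance 0.0001), so whole reads were recovered; a read is worth 0.583 normalized counts in the wild-type and 1.71 in the deficient library. The authors also deposited a table of log2 fold changes, p-values and a score per row; the score was not used.

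Of 33018 rows, 1 with shifted values was left out. The row with the highest mean stood for each gene. Folds are ratios of normalized counts without a pseudocount, with exact intervals on the reads. The reads carry no molecular identifiers and are not independent molecules. Paralog differences are log2 odds ratios of reads with exact conditional intervals. edgeR was not run, since 1 library per genotype leaves no residual degrees of freedom. Transcript lengths come from GENCODE M21, by RefSeq accession, for 56 members; the lengths that the authors counted over may differ. Shared 50-base stretches were searched on both strands in all GENCODE M21 transcripts. Python 3.11.15, numpy 2.4.6, pandas 2.3.3, scipy 1.17.1 and matplotlib 3.10.9 were used, and the procedures were tested on simulated data. The simulated reads held counting noise only, so that test says nothing about variation between animals or libraries. The members and lists were chosen with earlier results of these data known. Named genes are all compared members, members of subfamilies with at least 2 detected, and in each list every called gene and the 4 with the largest absolute log2 ratio. Genes outside this rule, and the members below the minimum, were named after their values were seen. The alternatives were pseudocounts of 1 and 50, no minimum and a minimum of 200, equal totals, recentring on the median, and other choices of transcript row.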

Additional observations from a re-analysis of the deposited data

How the results depend on the processing

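The family's median log2 ratio lay between -0.10 (equal totals) and 0.01 (minimum mean of 200) over the 8 alternatives, and the median of all genes compared between -0.08 and 0.07. Rab6b was called lower and Rab4a higher under each of the 7 alternatives that kept them, at -2.64 and 1.29 with a pseudocount of 50. Some of the 7 could not change these calls. Dropping the minimum leaves a gene's own ratio as it is, and each gene has only 1 row to choose. A minimum mean of 200 leaves out Rab6b, Rab4a and Rab34, so the family then has 0 called higher and 0 lower. With a pseudocount of 50 the family has 1 called higher. Of the effectors, 1 in place of 2 was called higher with a pseudocount of 50, a minimum of 200, equal totals, recentring, or the least different transcript row of each gene, and 0 in place of 1 was called lower with a pseudocount of 50, a minimum of 200 or the least different row. Of the exchange factors, 0 were called lower with a pseudocount of 50 or a minimum of 200, and 2 with equal totals, where Rin3 joined St5. Scaling to equal totals changed the split of all called genes from 137 higher and 136 lower to 115 and 179, a pseudocount of 50 to 96 and 67, a minimum of 200 to 93 and 71, and no minimum to 176 and 375. Another choice of row could hardly test the 14 paralog differences, because among their genes only Rab3a and Rab6a have more than 1 row. The rows of Rab3a hold equal values. Rab6a minus Rab6b was 4.636 by the main rule and 4.634 with rows summed. Rab8b, at 0.01, was at -0.08 with equal totals and at -0.04 when recentred. No paired analysis was possible because each genotype has 1 library. Depth sets the counting error alone. The half-width of the 95% counting interval of a compared member's log2 fold had a median of 0.18 and ran from 0.051 to 1.10. For 20 of 40 the interval included no change. Variation between animals or libraries is not part of these intervals and could not be estimated.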
